A study of Mus musculus with 44 samples.

Results

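The regions described here are distal sites of acetylated histone H3 lysine 27 (H3K27ac) that normal mouse hepatocytes carried and that were missing from hepatocyte-derived cells at the first sorted stage of biliary reprogramming, from later cells and from biliary cells. Overlapping peaks of the 11 H3K27ac lists were merged into 106194 regions, of which 67571 overlapped no peak of the 11 H3K4me3 lists and are called distal here. Of the 10505 distal regions with a peak in both normal hepatocyte libraries, 3535 (33.7%) had no peak in any of the 7 libraries of early cells, late cells and biliary epithelial cells. These 3535 regions, called early-lost regions below, made up 5.23% of the distal regions. Intermediate H3K27ac peaks helped to draw the merged regions, but neither their presence nor H3K4me1 or H3K27me3 was a criterion.

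The mice were Rosa26-LSL-Cas9-EGFP animals, labelled wild type, and all of them received AAV8-TBG-Cre at 5e11 genome copies, which switches on EGFP in hepatocytes because the TBG promoter is hepatocyte-specific. Normal hepatocytes (Hep, 2 libraries per mark) came from mice on normal diet and were isolated by a Percoll density gradient. The other groups came from mice fed a diet with 0.1% DDC, the porphyrin-raising compound diethoxycarbonyl dihydrocollidine that causes cholestatic injury, for 8 to 9 weeks beginning 1 week after the virus. They were sorted by flow cytometry into early cells (EGFP+ CD24-, 2 libraries), intermediate cells (EGFP+ CD24+ EPCAM-, 2 libraries), late cells (EGFP+ CD24+ EPCAM+, 3 libraries) and biliary epithelial cells (BEC, EGFP- EPCAM+, 2 libraries). Diet and isolation method changed together between Hep and every other group, so the effects of stage, diet and isolation cannot be told apart. The labels give neither age nor whether libraries came from separate mice, so p-values measure only the spread between libraries, which may be technical. These are bulk libraries, and a mark in fewer cells and less of a mark per cell cannot be told apart.

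H3K27ac is deposited by the acetyltransferases p300 and CBP at active promoters and enhancers, and H3K4me1, written by MLL3 and MLL4, marks enhancers whether or not they are active. H3K4me3 marks active promoters, and H3K27me3 marks regions repressed by Polycomb. In hepatocytes, distal enhancers are bound by factors such as HNF4A, FOXA, CEBP and nuclear receptors, and they drive genes for plasma proteins, intermediary metabolism and detoxification.

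A few early-lost regions reached into the 250 bases before an annotated gene start, and the bases they share with that stretch are shown because they include the starts of liver genes such as Alb. Of the 3535 regions, 41 overlapped a RefSeq promoter window of 300 bases (assembly GRCm38.p6, the assembly of mm10), and most of those windows belonged to predicted genes with Gm symbols. The 6 stretches shown, chosen after their values were seen from 9 protein-coding genes, belong to Alb (albumin), Igfbp2 (a secreted binding protein of insulin-like growth factors), Slc25a47 (a mitochondrial carrier of liver), Pbld1, Hgd (homogentisate dioxygenase of tyrosine breakdown) and Mup3 (a major urinary protein secreted by liver). Each is read 5′ to 3′ on the strand of its gene, in mm10, and capitals mark motif matches on either strand.
Alb, chr5:90460620-90460730, plus strand: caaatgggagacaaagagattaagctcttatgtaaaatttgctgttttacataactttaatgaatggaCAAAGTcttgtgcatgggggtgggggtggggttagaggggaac
Igfbp2, chr1:72824230-72824367, plus strand: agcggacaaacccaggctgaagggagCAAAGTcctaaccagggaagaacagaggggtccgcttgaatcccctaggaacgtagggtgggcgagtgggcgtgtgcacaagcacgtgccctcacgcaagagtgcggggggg
Slc25a47, chr12:108850879-108851038, plus strand: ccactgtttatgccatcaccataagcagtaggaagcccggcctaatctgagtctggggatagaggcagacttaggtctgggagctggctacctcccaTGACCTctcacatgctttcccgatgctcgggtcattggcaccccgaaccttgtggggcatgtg
Pbld1, chr10:63060463-63060675, plus strand: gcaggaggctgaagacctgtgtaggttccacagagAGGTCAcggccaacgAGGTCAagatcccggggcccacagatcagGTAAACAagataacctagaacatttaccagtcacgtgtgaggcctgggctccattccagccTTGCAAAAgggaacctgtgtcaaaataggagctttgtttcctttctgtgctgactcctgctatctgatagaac
Hgd, chr16:37579903-37579991, plus strand: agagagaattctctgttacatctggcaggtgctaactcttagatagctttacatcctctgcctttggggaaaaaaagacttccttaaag
Mup3, chr4:62087318-62087489, minus strand: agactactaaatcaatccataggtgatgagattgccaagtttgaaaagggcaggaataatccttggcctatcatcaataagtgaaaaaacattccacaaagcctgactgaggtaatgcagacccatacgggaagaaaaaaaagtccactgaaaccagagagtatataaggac
The motifs searched were TGTTTAC of FOXA, TTGCNNAA of CEBP, GTTAAT of HNF1, CAAAGT of HNF4A, TGANTCA of AP-1 and AGGTCA of nuclear receptors, without regard to overlaps between motifs. The Alb stretch, 250 to 140 bases before the start, held 1 HNF4A motif. The Igfbp2 stretch also held 1 HNF4A motif, and the Slc25a47 stretch held 1 nuclear receptor motif. The Pbld1 stretch held 1 FOXA, 1 CEBP and 2 nuclear receptor motifs, and the Hgd and Mup3 stretches held none of the motifs searched. Counting 1 window of 300 bases for each of the 41 regions, the CEBP motif was in 24.4% of windows against 10.8% of all 32851 windows, the HNF4A motif in 29.3% against 14.4%, and the nuclear receptor motif in 26.8% against 16.3%. FOXA (4.88% against 3.65%), HNF1 (7.32% against 7.10%) and AP-1 (4.88% against 7.81%) were at shares nearer to those of all windows. Windows were searched whole, so a motif could lie outside the early-lost region. The Hgd window held 2 CEBP and 2 nuclear receptor motifs, all outside the stretch shown. These shares are descriptions, and motif matches do not show binding.

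At the Alb start, the early-lost region spanned chr5:90460208-90460730, and H3K27ac peaks covered 391 bases of it in Hep 1 and 335 in Hep 2. H3K4me3 within 2500 bp of the same start covered 287 and 341 bases in Hep, 0 and 240 in early, 135 and 509 in intermediate, 148, 591 and 181 in late and 436 and 242 in BEC libraries, so that promoter mark was called in 10 of 11 libraries. At Hgd, promoter H3K4me3 covered 1190 and 792 bases in Hep, 475 and 1425 in early, 63 and 305 in intermediate and 0 in all late and BEC libraries. For Igfbp2 the values were 1212 and 1262 bases in Hep, 830 and 1199 in early, 505 and 924 in intermediate, 0, 283 and 216 in late and 0 in both BEC libraries. At Hgd and Igfbp2 the early libraries thus still had promoter H3K4me3 where the H3K27ac stretch beside the start was no longer called.

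Early-lost regions lay toward the weak end of hepatocyte H3K27ac, by the authors' score for each peak, which was used here only as a percentile within its own list. Their median percentile was 36.7 in Hep 1 and 39.5 in Hep 2, against 46.8 and 50.6 for all 10505 Hep distal regions. The 989 regions lost after the early stage (a peak in both Hep and both early libraries, none in late or BEC) had medians of 62.1 and 66.7, and the 1280 regions retained in all late libraries had 55.5 and 58.2. When the Hep distal regions were ranked by score and cut into 5 groups of 2101, 52.1% of the weakest group was early-lost, followed by 42.9%, 34.8%, 25.4% and 13.1% of the strongest. These regions were short: peaks covered a median of 207 bases in Hep 1 and 216 in Hep 2, and the merged region had a median length of 275 bp. Score and absence from other lists both enter the choice of the regions, so these values are a description. Early libraries also had less H3K27ac called in all, 8.41 ± 0.0854 Mb (SD, n = 2) against 14.1 ± 0.718 Mb (SD, n = 2) in Hep, and the part of this difference in the choice was not tested.

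**Figure D1:**
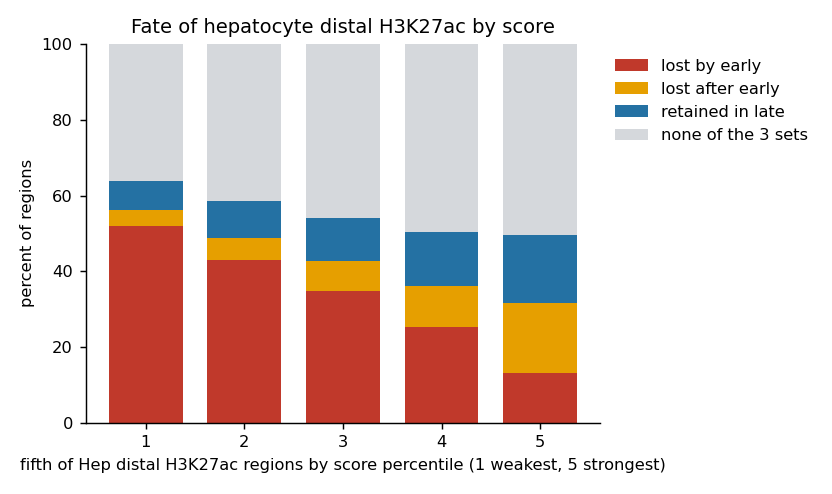
Share of the 10505 Hep distal H3K27ac regions in each set (y axis, percent) in 5 equal groups by mean score percentile over both Hep libraries (x axis, 1 weakest to 5 strongest). The early-lost share falls from 52.1% in the weakest group to 13.1% in the strongest.

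The edge of the rule was broad. Another 2363 Hep distal regions had a peak in exactly 1 of the 7 libraries, and in 1543 of them that library was early 2, while it was early 1 in 447. A further 3094 distal regions had a peak in Hep 1 but not Hep 2 and in none of the 7, and 5125 in Hep 2 but not Hep 1. When a library was left out of the choice, a share of the regions chosen by the others had a peak in it, given here beside the share over all Hep distal regions. It was 11.2% against 34.7% for early 1, 30.4% against 53.2% for early 2, 1.64 to 3.31% against 16.7 to 29.4% for the late libraries, and 1.31 and 1.37% against 15.6 and 15.4% for BEC. A share of 40.8% of regions chosen without Hep 1 had a peak in it, and 53.3% of those chosen without Hep 2. The second early library and both Hep libraries therefore set the membership most, and without Hep 1 or Hep 2 the count was 8905 or 6851.

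Intermediate cells, whose H3K27ac was no criterion of the choice, also mostly lacked it at these regions. A peak was present at 248 regions (7.02%) in intermediate 1 and at 151 (4.27%) in intermediate 2, with 54 in both and 3190 (90.2%) in neither. All Hep distal regions had shares of 41.0% and 34.5%, regions lost after early 46.8% and 32.0%, and regions retained in late 97.3% and 93.6%. With 2 libraries per group the mean was 5.64 ± 1.94% (SD, n = 2), and both values lay below both values of each other set. No test was made, because the sets were defined from libraries of the same experiment. Within 1000 bp of an early-lost region, an H3K27ac peak was present at 10.1% and 13.6% in early, 18.8% and 15.0% in intermediate, 9.42, 10.9 and 7.07% in late, and 6.48% and 7.33% in BEC libraries.

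**Figure D2:**
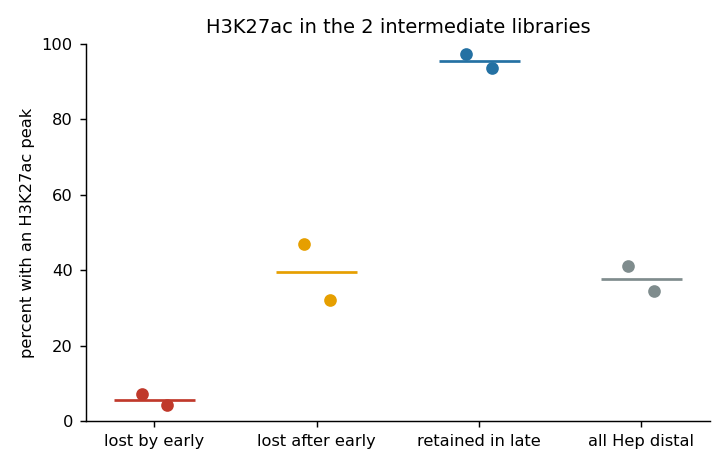
Percent of regions (y axis) with an H3K27ac peak in each of the 2 intermediate libraries (points, intermediate 1 left, and their mean as a line) for 4 sets of Hep distal regions (x axis). The early-lost regions sit at 7.02% and 4.27%, below every other set.

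Among regions with H3K27ac in both intermediate libraries, 6 were named by score. The strongest lay 17309 bp from Bach1, a heme-responsive transcriptional repressor, at chr16:87681280-87681645. Its H3K27ac peaks covered 341 and 275 bases in Hep and 115 and 226 in intermediate libraries. Its H3K4me1 covered 496 and 510 bases in Hep, 384 and 442 in early, 148 and 259 in intermediate, 60, 423 and 0 in late and 434 and 0 in BEC libraries, so H3K4me1 was present in early cells where H3K27ac was not called. The other 5 regions were nearest to Rab40c, Ube4a, Ctcfl, Eea1 and Ralgapa2.

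H3K4me1, measured in separate libraries and not used for the choice, was present at most early-lost regions in hepatocytes and at fewer in every other library. Within 1000 bp of the region's midpoint, an H3K4me1 peak was called at 86.5% and 93.9% of early-lost regions in Hep 1 and Hep 2. The share was 17.8% and 57.4% in early, 22.9% and 23.3% in intermediate, 17.8, 25.8 and 11.3% in late and 17.4% and 5.66% in BEC libraries. Every library after Hep lay below both Hep libraries, and early 2 stood apart from early 1. Both held also for all Hep distal regions, regions lost after early and regions retained in late. For regions lost after early the shares were 95.7% and 98.1% in Hep and 35.9% and 85.8% in early libraries. They were 44.3% and 45.9% in intermediate, 22.3, 43.8 and 13.3% in late and 19.3% and 4.85% in BEC libraries. For regions retained in late the shares were 92.5% and 97.2% in Hep, 38.7% and 83.8% in early and 76.6% and 71.5% in intermediate libraries. There they were 85.4, 85.1 and 53.4% in late and 81.2% and 50.6% in BEC libraries. Total H3K4me1 called also moved with stage, with 18.1 ± 2.31 Mb (SD, n = 2) in Hep, 7.44 ± 5.64 Mb (SD, n = 2) in early and 6.84 ± 5.01 Mb (SD, n = 3) in late libraries, and its part in these shares was not tested.

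**Figure D3:**
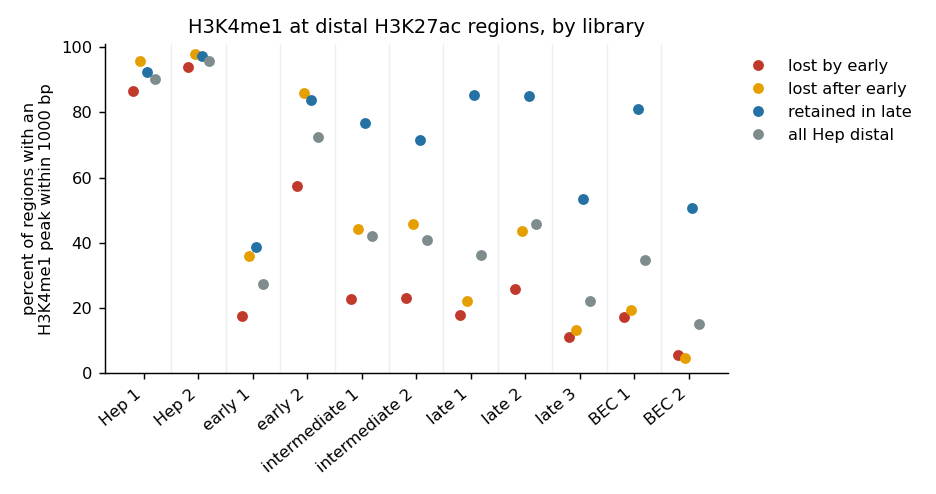
Percent of regions with an H3K4me1 peak within 1000 bp of the midpoint (y axis) in each of 11 libraries (x axis) for 4 sets of Hep distal H3K27ac regions (colours). Early-lost regions stand at 86.5% and 93.9% in Hep and at 17.8% and 57.4% in early libraries.

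Of the early-lost regions, 3002 (84.9%) had H3K4me1 in both Hep libraries. Among these, 999 (33.3%) had none in either early library, 1476 had it in 1 early library and 527 in both. In the regions lost after early the share with none in either early library was 10.8%, and of the 1172 retained in late with both Hep libraries 141 had none. H3K4me1 was called in no library after Hep at 701 of the 3002 regions, and in neither BEC library at 2395 (79.8%). At 162 of the 3535 regions neither Hep library had an H3K4me1 peak.

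**Figure D4:**
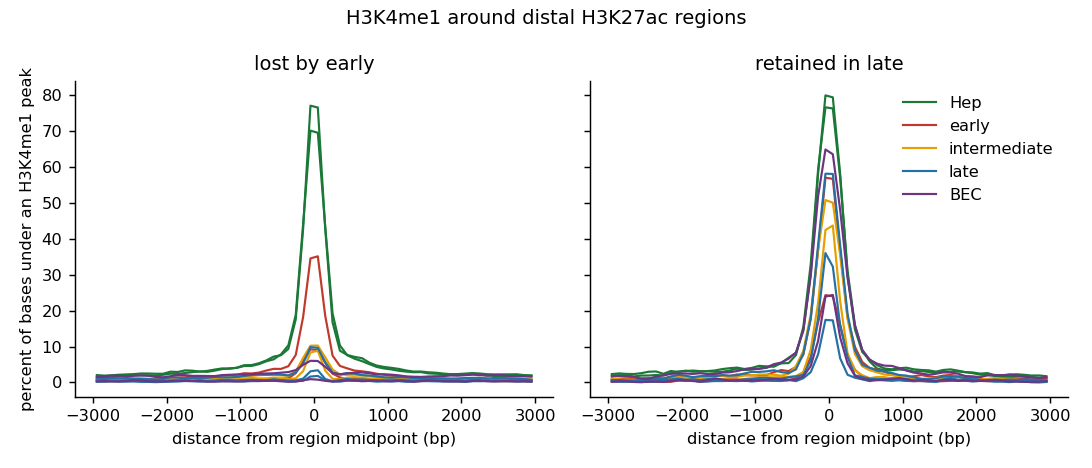
Percent of bases under an H3K4me1 peak (y axis) by distance from the region midpoint in bp (x axis, bins of 100 bp), one line per library coloured by stage, for early-lost regions (left) and regions retained in late (right). In the bin just left of the midpoint of early-lost regions H3K4me1 covered 70.2% and 77.1% of bases in Hep and 9.24% and 34.6% in early libraries.

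H3K4me1 coverage was then compared between stages with limma over 32606 distal H3K27ac regions, on log2 of the bases covered within 1000 bp plus 100. A region called lower or higher had a Benjamini-Hochberg adjusted p under 0.05. Of the 3535 early-lost regions, 3182 passed the filter of a peak in at least 2 libraries, and 701 of these passed through the Hep libraries alone, while another 878 had a peak in 1 library after Hep. A region that passed only through Hep could be called in no other direction than lower, so the counts of lower calls describe the tested regions and are no independent support. For the same reason no p is given below for a region or promoter that would not have passed without the group where it is high. In early versus Hep, 908 early-lost regions (28.5% of those tested) were lower, where 5.74% of all tested regions were called lower, and 1 was higher, where 0.383% were. In intermediate versus Hep 1608 were lower (50.5%, background 12%) and 1 was higher (background 1.91%). In late versus Hep 2075 were lower (65.2%, background 17.9%) and 0 higher (background 2.21%), and in BEC versus Hep 2225 were lower (69.9%, background 20.3%) and 0 higher (background 11.7%). Of all Hep distal regions tested, 14.5%, 31.0%, 45.7% and 51.6% were lower in the same order. The shares were 9.18%, 32.3%, 57.7% and 67.6% for regions lost after early, and 3.78%, 4.33%, 8.74% and 11.7% for regions retained in late. In late and BEC cells the regions lost after early were thus close to the early-lost regions. The difference between sets was not tested, and the 4 comparisons share the Hep libraries. Quantile normalization lowered the early count to 298 of 3182, where 1.67% of all tested regions were lower.

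The lower calls came mostly from regions with no early peak at all. In 830 of the 908 lower regions neither early library had H3K4me1. A peak in at least 2 libraries after Hep was present at 1603 tested early-lost regions. Of these, 62 were lower in early, 332 in intermediate, 640 in late and 786 in BEC cells. Over all tested regions 5.74%, 12%, 17.9% and 20.3% were lower, so in early the share of these 1603 did not exceed that of all. Shares over all regions with the same later peaks were not computed. The median log2 difference over tested early-lost regions was -1.46 in early, -1.83 in intermediate, -1.94 in late and -2.01 in BEC versus Hep. It was -0.16, -0.13, -0.36 and 0 over all tested regions, and -1.16, -1.63, -2.06 and -2.26 over regions lost after early. Over all Hep distal regions tested it was -1.24, -1.53, -1.77 and -1.84, and over regions retained in late -1.08, -0.78, -1.15 and -0.84. The calls rested on both Hep libraries: without Hep 1 or without Hep 2 limma called 0 regions in any of the 4 comparisons, with 471 of 2468 and 462 of 2406 tested early-lost regions lower in early at an unadjusted p under 0.05. At that p, 2283 of 31274 and 2275 of 30916 regions differed in either direction. Without early 2 the early count was 1633 (13.1% of all tested regions lower), and without the late libraries with very short peaks (late 1 and late 3) the late count was 0, with 1849 at an unadjusted p under 0.05. Without BEC 1 the BEC count was 998 (8.36% of all tested regions lower), and without intermediate 1 or intermediate 2 the intermediate count was 748 or 706 (4.89% or 4.37% of all). With the same number of peaks taken from each library 1305 early-lost regions were tested, and 297, 494, 590 and 592 were lower in early, intermediate, late and BEC cells, where 5.03%, 9.36%, 13.5% and 14.2% of all tested regions were.

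The strongest H3K27ac among early-lost regions was in Rcor1, which encodes the CoREST corepressor, at chr12:111114640-111114981, with a mean score percentile of 99.1. Its H3K4me1 covered 390 and 544 bases in Hep and 0 in the other 9 libraries. This region passed the filter only through the Hep libraries. Cyp2c67, a cytochrome P450 gene, held the region chr19:39644570-39644989, where H3K4me1 covered 335 and 269 bases in Hep and 0 in every other library. Slc7a15, an amino acid transporter family gene, held another region of this kind, with 330 and 563 bases in Hep and 0 elsewhere. The same 12 strongest regions included some that kept H3K4me1 in early cells. The region 33659 bp from Plekhg1 had 231 and 250 bases in Hep, 232 and 370 in early and 0 in every later library and in BEC. The region 22150 bp from Peli2, a ubiquitin ligase gene of Toll-like receptor signalling, had 315 and 225 bases in Hep, 196 and 274 in early, 0 in intermediate and BEC, and 83, 0 and 0 in late libraries. At both, the early values overlapped those of Hep, and their limma differences in early did not pass (log2 0.22 and -0.14).

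The largest H3K4me1 decreases in early cells were at regions nearest to Ercc6l2, Dnajc13, Denn2b, Nfix, Zc3h12d and Acot7, with log2 differences from -3.33 to -3.14. Of these, the region in Denn2b had H3K4me1 in enough later libraries to be tested without Hep: it covered 811 and 792 bases in Hep, 0 in early and intermediate, 90, 255 and 107 in late and 0 in BEC libraries (limma adjusted p = 0.0053 in early). The region in Nfix, a nuclear factor I gene, had H3K4me1 over 812 and 765 bases in Hep, 0 in both early libraries and 121 bases in late 2 as the only value after Hep. The region in Dnajc13, an endosomal cochaperone gene, had 1046 and 642 bases in Hep and 0 elsewhere. A single early-lost region was higher in H3K4me1 in early cells, inside Nr1h4, the gene of the bile acid receptor FXR, at chr10:89483850-89484045. There H3K4me1 covered 0 bases in both Hep, 198 and 280 in early and 0 in the other 7 libraries. That region therefore had H3K27ac without H3K4me1 in hepatocytes and H3K4me1 without H3K27ac in early cells.

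Early-lost regions were spread over 2410 nearest genes. Of the 3535, 2087 (59.0%) lay inside a protein-coding gene. The median distance to the nearest start of any protein-coding gene was 23367 bp, and 73 (2.07%) lay within 1000 bp of one. Both ends counted as starts for genes without a promoter window. The same values for all Hep distal regions were 59.6%, 25211 bp and 1.95%. Among genes within 100000 bp, 1828 had 1 early-lost region, 408 had 2, 145 had 3 or 4 and 29 had 5 or more. At 1158 genes every Hep distal region was early-lost, but only 40 of these genes had 3 or more such regions. A further 379 genes had an early-lost region and also a region retained in late cells. Over chromosomes 1 to 19 and X the early-lost share of Hep distal regions was lowest on chromosome 15 (28.8%) and highest on X (68 of 151 regions).

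Zbtb20, a zinc-finger repressor of the fetal liver gene Afp, had the most, with 10 early-lost regions among its 21 Hep distal regions. Of these 21, another 4 were retained in late cells. Itpr1, the calcium channel that inositol trisphosphate opens, had 8 of 20, and Lpp, a focal adhesion protein, also had 8, of 18. Arhgap24, a GTPase-activating protein, had 7 of 11, and Nfib, another nuclear factor I gene, had 7 of 9, with no region retained in late at either. Sik3, a salt-inducible kinase, had 6 of 14. These 6 genes are long, and the part of gene length in these counts was not tested. In Nfib, H3K4me1 at the region chr4:82420296-82420657 covered 351 and 495 bases in Hep and 0 in the other 9 libraries. Of the 9 tested regions of Zbtb20, 6 did not pass in early. The other 3 were lower by limma, beside 28.5% of all early-lost regions and 5.74% of all regions tested. At chr16:43060388-43060554, among the 3, H3K4me1 covered 305 and 250 bases in Hep and 0 elsewhere.

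Genes of hepatocyte factors, metabolism and detoxification were among the nearest genes. Over all 21887 protein-coding genes, 2410 were nearest to at least 1 early-lost region, and 33.6% of the Hep distal regions near genes were early-lost. Of 30 hepatocyte transcription factors, 20 had one, and 42 of their 106 Hep distal regions (39.6%) were early-lost. Of 35 glucose and lipid genes 19 had one (26 of 72 regions), of 22 bile acid and transport genes 8 (9 of 28), of 28 xenobiotic genes 9 (14 of 43), of 28 urea and amino acid genes 8 (12 of 25) and of 34 secreted protein genes 10 (12 of 26). Circadian and hormone genes had 18 of 72 regions early-lost at 8 of 25 genes, and zonation genes 3 of 12 at 3 of 19. Of 20 housekeeping genes, 12 stellate and 11 lymphocyte markers none had an early-lost region, of 11 macrophage markers 1 had one and of 18 injury genes 4. Hep distal regions numbered only 5 for housekeeping genes, 0 for stellate, 2 for lymphocyte and 3 for macrophage markers, and 15 for injury genes. Nothing is read from these low counts. The share of early-lost regions over these hepatocyte lists ran from 3 of 12 for zonation to 12 of 25 for urea and amino acid genes, around the 33.6% of all genes, and nothing is read from their differences.

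Nr1i2, the gene of the pregnane X receptor that senses drugs and bile acids, had its only Hep distal region among the early-lost ones, at chr16:38279641-38280186. H3K27ac peaks covered 546 and 400 bases of it in Hep, and H3K4me1 covered 424 and 303 bases in Hep and 0 in the other 9 libraries. Gata4, a GATA factor, showed the same arrangement 15677 bp from the gene, with H3K4me1 over 347 and 536 bases in Hep and 0 elsewhere. Cyp27a1, the sterol 27-hydroxylase of bile acid synthesis, had 467 and 249 bases in Hep and 0 elsewhere. All 3 regions passed the filter only through the Hep libraries. Of the 40 tested regions of the hepatocyte factor list 9 were lower in early by limma, and of the 9 tested bile acid and transport regions 2 were, beside 908 of 3182 over all early-lost regions and 5.74% over all tested regions. Nr0b2, the gene of the repressor SHP, did not pass in early, with 196 and 177 bases in Hep, 0 and 158 in early and 0 later.

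In the glucose and lipid list 8 of 21 tested regions were lower in early, beside 28.5% of all early-lost regions and 5.74% of all regions tested. Fbp1, the gluconeogenic fructose bisphosphatase, kept H3K4me1 in early cells, with 344 and 297 bases in Hep and 207 and 267 in early, but 127 and 0 in intermediate, 0, 0 and 63 in late and 0 in BEC libraries. Its log2 difference was -0.32 in early and -1.83 in late, where it passed by limma (adjusted p = 0.019). Ppargc1a, a coactivator of gluconeogenic genes, had at its strongest early-lost region a peak in 10 of the 11 H3K4me1 libraries, the exception being early 1.

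In the urea and amino acid list 4 of 11 tested regions were lower in early, and among secreted protein genes 4 of 12, beside the same 28.5% and 5.74%. Agxt, which detoxifies glyoxylate, had a strong early-lost region (mean score percentile 89.8) 11726 bp from the gene at chr1:93123200-93123514. Its H3K4me1 covered 798 and 495 bases in Hep, 0 and 256 in early, 0 and 219 in intermediate, 128, 43 and 164 in late and 327 and 209 in BEC libraries, and the difference in early did not pass (limma adjusted p = 0.2). Hgd had 316 and 190 bases in Hep and 0 in early, and did not pass either (limma adjusted p = 0.17). Of 13 tested xenobiotic regions 1 was lower in early, beside the same shares. Cyp2e1, a pericentral cytochrome P450, kept H3K4me1 in early cells at its region 7076 bp away, with 212 and 398 bases in Hep, 196 and 401 in early and 201 and 293 in intermediate, and 0, 0 and 63 in late and 0 in BEC libraries. The early and Hep values overlapped, and the late difference passed (log2 -1.74, limma adjusted p = 0.019).

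**Figure D5:**
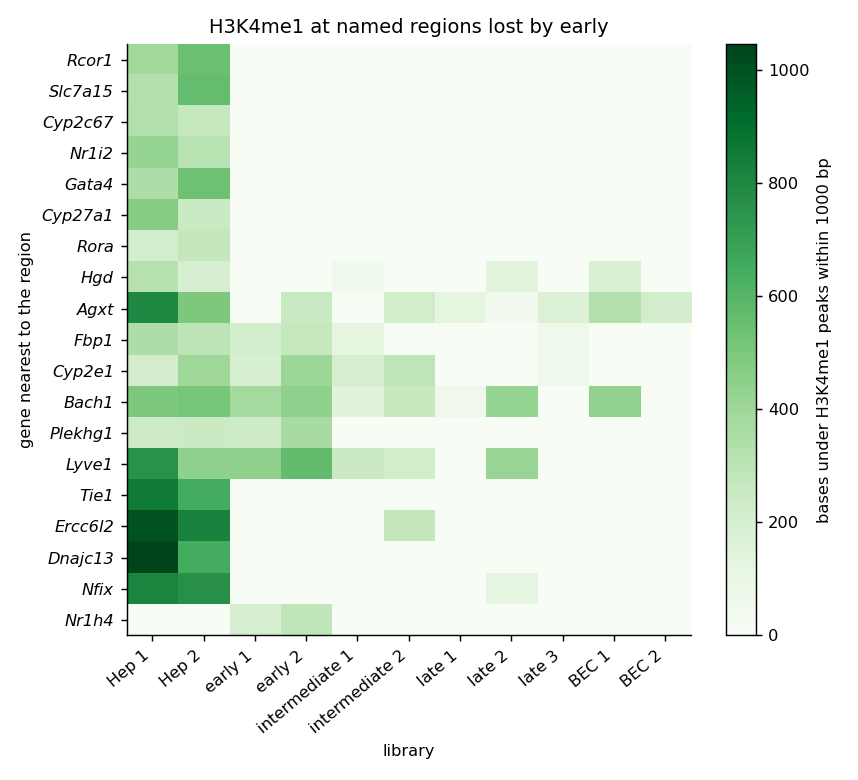
Bases under H3K4me1 peaks within 1000 bp of the region midpoint (colour, bp) at early-lost regions named in the text (rows, by nearest gene) in the 11 H3K4me1 libraries (columns). Rcor1, Nr1i2 and Tie1 have H3K4me1 in Hep libraries alone, Fbp1, Cyp2e1 and Plekhg1 also in early libraries, and Nr1h4 in early libraries alone.

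Circadian and hormone genes had 7 of 16 tested regions lower in early, beside 28.5% of all early-lost regions and 5.74% of all regions tested. Rora, a nuclear receptor of the clock, had 214 and 272 bases of H3K4me1 in Hep and 0 in the other 9 libraries at chr9:69229968-69230396. Thrsp, a lipogenic gene that thyroid hormone induces, had 446 and 516 bases in Hep, 0 and 436 in early and 0 later. Early 2 lay near the Hep values and early 1 at 0.

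Early-lost regions also lay near markers of other cells. Of 12 endothelial markers 6 were nearest to an early-lost region (8 of 15 Hep distal regions), and the region 10538 bp from Tie1, an endothelial receptor kinase, had H3K4me1 over 852 and 647 bases in Hep and 0 in the other 9 libraries. Those near Stab2 and Lyve1, genes of liver sinusoidal endothelium, did not pass in early. Promoter H3K4me3 was called at 0 and 1 of the 12 endothelial markers in Hep and at 0 and 2 in early libraries, and at 0 of 11 lymphocyte markers in all libraries. Macrophage markers had it at 0 and 1 of 11 in Hep and 1 and 0 in early libraries, and stellate markers at 1 of 12 in each of those. The part of other cells in the near-endothelial regions was not tested. In the Hep libraries promoter H3K4me3 was called at 31 and 30 of 34 hepatocyte secreted protein genes, and in BEC libraries at 11 and 10. Biliary markers had promoter H3K4me3 at 10 and 11 of 28 genes in Hep and 27 in each BEC library, and 5 of them, including Sox4, Ehf and Pkhd1, were nearest to an early-lost region. The region 88086 bp from Sox4 had H3K4me1 over 300 and 435 bases in Hep and 0 elsewhere. Those near Ehf and Pkhd1 did not pass in early, and 1 of 5 tested biliary marker regions was lower, beside 28.5% of all early-lost regions.

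Promoters of the nearest genes mostly kept H3K4me3 in early cells. Of the 2410 nearest genes, 1787 had a promoter H3K4me3 peak in both Hep libraries. Of these, 1679 (94.0%) had one in both early libraries and 36 (2.01%) in neither. Over all protein-coding genes the shares were 95.4% and 1.49%. In late cells 1611 (90.2%) of the 1787 had it in every library and 46 (2.57%) in none, and in BEC 117 (6.55%) in neither library, where 1.63% and 3.61% of all genes with promoter H3K4me3 in Hep had none. No test was made of these shares.

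In the limma comparison of promoter H3K4me3 (bases within 2500 bp of the start, 13476 genes tested), 13 of 2037 tested nearest genes were lower in early than in Hep, where 0.312% of all genes were, and 5 were higher, where 0.349% of all genes were. These are 0.638% and 0.245% of the nearest genes. In intermediate versus Hep 46 were lower (2.26%, background 1.03%) and 17 higher (0.835%, background 1.5%). In late versus Hep 125 were lower (6.14%, background 3.07%) and 41 higher (2.01%, background 3.32%), and in BEC versus Hep 135 were lower (6.63%, background 3.11%) and 98 higher (4.81%, background 9.1%). Of genes nearest to regions lost after early, 0.726%, 1.60%, 5.37% and 5.37% were lower in early, intermediate, late and BEC cells, and 0.290%, 0.726%, 1.89% and 4.06% higher. For genes nearest to regions retained in late these shares were 0.347%, 1.16%, 4.16% and 3.47% lower, and 0.578%, 1.16%, 3.01% and 6.71% higher. Differences between these gene sets were not tested. Leaving out either Hep or either early library left 0 limma calls in early versus Hep. At an unadjusted p under 0.05, 61 nearest genes were lower and 23 higher without Hep 1, and 37 lower and 50 higher without Hep 2, where 524 of 13431 and 627 of 13405 genes differed in either direction. Without early 1 they were 54 lower and 33 higher, and without early 2 91 lower and 32 higher. Without Hep 1 or Hep 2 the intermediate counts were 3 lower or 1 lower, with 0 higher, and the late counts were 36 lower and 2 higher or 35 lower and 3 higher. With peaks resized to 500 bp the balance turned: 26 were lower and 59 higher in early (all genes 0.874% and 2.79%), 32 and 163 in intermediate (0.807% and 9.13%), 54 and 243 in late (1.46% and 13.6%), and 79 and 123 in BEC cells (2.11% and 7.87%).

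The largest decrease was at Hsd3b5, a hydroxysteroid dehydrogenase gene of mouse liver with 2 early-lost regions among its 3 Hep distal regions. Its promoter H3K4me3 covered 1094 and 1181 bases in Hep and 0 in all 9 other libraries. The 250 bases before its start are shown because that promoter lost its H3K4me3 together with H3K27ac nearby, with the HNF4A motif on the other strand in capitals.
Hsd3b5, chr3:98645535-98645784, minus strand: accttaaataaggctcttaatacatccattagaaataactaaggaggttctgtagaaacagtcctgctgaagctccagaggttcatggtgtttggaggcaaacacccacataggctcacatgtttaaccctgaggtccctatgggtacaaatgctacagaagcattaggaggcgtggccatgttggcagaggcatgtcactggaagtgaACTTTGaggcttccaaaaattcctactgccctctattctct
Csrp3, Clec2h and Cd1d1 showed the same arrangement, with 622 to 1022 bases in Hep libraries and 0 in the other 9. Chic1 had 717 and 777 bases in Hep and 0 in early and intermediate, but 53, 306 and 237 in late and 415 and 487 in BEC libraries. Arid1b, a subunit of the BAF chromatin remodelling complex, had 1663 and 1650 bases in Hep and 0 and 299 in early, with values between 375 and 815 in later stages and BEC. The adjusted p by limma in early was 0.011 for Chic1 and 0.023 for Arid1b.

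Nearest genes whose promoter H3K4me3 was higher in early cells were Osbpl3, Ypel4, Ifnlr1, Lrfn3 and Slc38a4, all at 0 bases in both Hep libraries. Osbpl3, an oxysterol-binding protein gene, had 1148 and 1300 bases in early, 676 and 1246 in intermediate, 411, 1445 and 1021 in late and 1980 and 1623 in BEC libraries (limma adjusted p = 0.0066 in early). Ifnlr1, a receptor subunit for type III interferons, had 667 and 973 bases in early and 1055 and 879 in BEC libraries (limma adjusted p = 0.023). Each of these 5 genes was nearest to at least 1 early-lost region while its promoter H3K4me3 rose.

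Regions within 1000 bp of a start but with no H3K4me3 peak over them were also among the early-lost ones. Among those with the highest score were regions at Wdr45b, Ccm2l, Nrbp2, Etv4 and Nin. The region 121 bp from Ccm2l had H3K4me1 over 264 and 352 bases in Hep and 0 elsewhere. At Etv4, an ETS factor, H3K4me1 covered 973 and 918 bases in Hep, 348 and 154 in early, 0 and 385 in intermediate, 0, 154 and 0 in late and 0 in BEC libraries, with no overlap between Hep and the rest, and the early difference did not pass (limma adjusted p = 0.32).

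H3K27me3 was rare at early-lost regions, and also at all Hep distal regions. The mean share of early-lost regions with a peak was 0.622% in Hep, 0.127% in early, 0.509% in intermediate, 0.669% in late and 0.255% in BEC libraries. Over all Hep distal regions it was 0.576%, 0.119%, 0.300%, 0.441% and 0.124% in the same order. A peak within 1000 bp was called in any library at 102 of the 3535 early-lost regions, in 2 or more libraries at 31, and in no library at 3433. In the early stage 3 regions had it in both libraries, each also called in Hep. The 3 named regions with H3K27me3 in every library of a later stage and none in Hep were nearest to Gtf3a, Osbpl5 and Chic1. The region in Osbpl5, 1424 bp from the start, had H3K4me1 over 367 and 388 bases in Hep and 0 in the other 9 libraries.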

How the data were processed

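Peak lists of 44 libraries (4 marks, 11 libraries each) were used as the authors deposited them, 1 list per library. Per the submitters' processing notes, Bowtie2, Picard, deepTools and MACS2 were used with the build mm10, without versions or settings. The authors' deposited score of each peak, whose definition no label states, was used only as a rank within its list. Its lowest value in a library was 2.00 to 2.09. H3K27ac lists held 23511 to 51807 peaks and H3K4me1 lists 12785 to 77991. Read depth is unknown, so no counting interval can be given. Peaks off the chromosomes (1210, 0.0902%) were left out.

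Regions were merged at 1 shared base. Bases covered within 1000 bp of the midpoint (H3K4me1) or 2500 bp of a gene start (H3K4me3) were tested as log2(bases + 100), so log2 differences understate losses to 0, with limma 3.58.1 (lmFit, eBayes) in R 4.3.3. All 11 libraries entered 1 fit of 5 stages, for features with a peak in at least 2 libraries, at a Benjamini-Hochberg adjusted p under 0.05 over all features. The fit was tested on simulated data. Gene starts came from RefSeq (GRCm38.p6), from promoter windows for 17492 of 21887 genes and otherwise the gene end with more H3K4me3.

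The regions, gene lists and tests were chosen with earlier results of these data known. Named regions were the 12 with the highest Hep score, up to 3 per list, those at the 6 genes with most, up to 6 with both intermediate H3K27ac libraries, up to 6 per direction by H3K4me1 change and up to 6 promoters per direction by H3K4me3 change in early, up to 4 with gained H3K27me3 and up to 6 within 1000 bp of a start, without Gm and Rik symbols. Some named items are not reported here. Nothing in the labels says that replicate numbers pair the libraries. Alternatives covered peak number, peak length, score, overlap, window, filter, added constant, quantile normalization, the replicate block and each library left out.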

Additional observations from a re-analysis of the deposited data

How the results depend on the processing

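The number of early-lost regions was 1275 with an equal number of peaks per library, 846 of them among the 3535, and ranged from 3537 to 8905 when 1 library was left out, the highest without Hep 1 (6851 without Hep 2). The mean intermediate H3K27ac share was 2.78% with an equal number of peaks and 4.27 to 7.02% from 1 intermediate library alone. Counts of early-lost regions with lower H3K4me1 changed by more than 1.5 times as follows. With an equal number of peaks per library they were 297 in early, 494 in intermediate, 590 in late and 592 in BEC. Quantile normalization gave 298 in early (1.67% of all tested regions lower), and peaks resized to 500 bp gave 933 in intermediate (5.84%). Without the short-peak libraries they were 590 in early, 1058 in intermediate and 0 in late. With 1 library left out they ranged from 0 to 1633 in early, 0 to 1878 in intermediate, 0 to 2236 in late and 0 to 2318 in BEC. With the replicate block they were 0 in early, 764 in intermediate and 929 in late, where 4.80% and 6.16% of all tested regions were lower in intermediate and late. In early, 1501 were lower at an unadjusted p under 0.05 by limma, where 5148 of 32606 regions differed in either direction. Same-numbered libraries of 2 stages had deviations correlated at -0.114 to 0.0693 for H3K4me1 and up to 0.213 for H3K4me3 (intermediate and late), and at -0.00849 for Hep and early H3K4me1, so the numbers were not taken to pair them. For promoter H3K4me3 in early versus Hep, lower nearest genes numbered 25 with quantile normalization, 26 with resized peaks (beside 59 higher) and 29 with the replicate block. Of all tested genes 0.742%, 0.874% and 0.727% were lower with these settings. Without late 1 the number was 27, where 0.687% of all tested genes were lower. No region or promoter named by H3K4me1 or H3K4me3 change reversed. Most of them had 0 bases in both Hep or both early libraries, where a sign can hardly turn. With settings other than a library left out, 10 of 50 region fits and 16 of 77 promoter fits no longer passed in early. Passes were also lost with 1 library left out. The cause of these changes was not tested, except that a group with 1 library left has fewer residual degrees of freedom and is assumed to vary like the others. Read depth is unknown and limits what absence of a peak can show.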
